A study of Rattus norvegicus with 6 samples.

Results

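Wnt genes were followed in neurospheres, floating cell clusters formed by cells of carotid bodies from adult rats. The carotid body lies where the carotid artery divides and senses the oxygen of the blood. The members are all genes with a probe set of their own whose platform symbol starts with Wnt, Fzd, Sfrp, Dkk or Rspo and a digit, together with Lrp5, Lrp6, Ror1, Ror2, Ryk, Wif1, Ctnnb1, Axin1, Axin2, Lef1, Tcf7, Tcf7l1 and Tcf7l2 where measured. They came to 48 of 14506 genes, and 1 of them (Tcf7l1) had more than 1 probe set, so the probe set of highest mean was kept. By role they are 17 Wnt ligands, 8 Frizzled receptors, 5 co-receptors or other Wnt receptors, 3 R-spondins, 9 secreted antagonists and 6 intracellular relay genes. Fzd7, Fzd10, Rspo4, Tcf7l2, Wnt7a and Wnt11 were not analysed here.

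Total RNA was measured on 6 Affymetrix arrays, 3 labelled differentiated and 3 labelled undifferentiated. Per the labels, the spheres labelled differentiated had been kept without mitogens in hypoxia at 3% oxygen, and those labelled undifferentiated with FGF, IGF-1, EGF and ET-1 in normal oxygen. Both kinds of culture lasted 10 days and used neural crest medium in plates that cells attach to poorly. Mitogens and oxygen changed together and cannot be told apart. The strain, exact age and number of the rats are not given in the labels used here. Whether the 3 arrays of a group stand for separate cultures or rats is not said in the labels, so each p-value reflects the spread among these arrays alone, and that spread may be technical.

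The series set out to compare pathways between neuron-rich spheres and spheres rich in undifferentiated cells, and the labels were first checked on marker genes. Th, which makes the dopamine precursor L-DOPA in glomus cells, was at 10.73, 11.32 and 10.65 in the arrays labelled differentiated, against 13.76, 13.59 and 13.91 in those labelled undifferentiated. A lower Th in spheres labelled as neuron-rich goes against that label, so groups are called by their labels throughout and every direction rests on them. Whether the labels of the groups were exchanged was not tested and cannot be told from these values. All 12 measured glomus cell markers were lower in the arrays labelled differentiated, and the mean value over these 12 was 7.48 to 7.86 there, against 10.35 to 10.47 in the arrays labelled undifferentiated. All 10 fibroblast and mesenchyme markers were higher, at a mean of 11.07 to 11.18 in the arrays labelled differentiated, against 9.77 to 10.05 in those labelled undifferentiated. All 8 mitosis markers were higher too, at a mean of 6.39 to 6.75 in the arrays labelled differentiated, against 5.18 to 5.43 in those labelled undifferentiated. The labels give mitogens to the spheres labelled undifferentiated, where these 8 markers were lower. Of the other markers 6 of 9 smooth muscle and pericyte genes were higher. The glial list had 3 higher and 1 lower of 7, the endothelial list 1 and 2 of 7, the leukocyte list 2 and 3 of 8, and the neuronal list 2 and 3 of 8. As a baseline for these counts, 29.5% of all genes differed by limma at the same threshold. With dim genes left out it was 4059 of 10160. Of 4 progenitor markers 0 passed by limma, and 1 (Nes) had an unadjusted p under 0.05. Tubb3, Gfap and Nes, checks of neurons, glia and progenitors, differed by -0.00165, 0.19 and 0.65 on the log2 scale (limma adjusted p = 0.995, 0.373 and 0.0542). On this scale no marker can be said to be at 0; Pecam1, Cdh5 and Kdr of the endothelial list, Fabp7 of the glial list, Tac1 of the glomus list, Des of the smooth muscle list and Cd163 of the leukocyte list lay among the dimmest 40% of probe sets. In bulk RNA, fewer cells of a type and less RNA per cell cannot be told apart, and the part of these markers in the results below was not tested.

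Wnt proteins are secreted lipid-bearing ligands that bind Frizzled receptors. With the co-receptors Lrp5 or Lrp6 they stop the Axin and Apc complex from destroying beta-catenin, which then joins Tcf and Lef factors at target genes, Axin2 and Lef1 among them. With Ror1, Ror2 or Ryk some Wnts act without beta-catenin, on cell polarity, migration and calcium. R-spondins raise the number of receptors at the surface, while Sfrp proteins and Wif1 bind Wnts and Dkk1 blocks Lrp5 and Lrp6. In the embryo the pathway is known for its work in the induction and migration of the neural crest, the lineage from which carotid body cells derive.

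Promoters are shown for 2 members that fell (Axin2 and Lef1, both known beta-catenin targets) and 2 that rose (Wnt5a and Wif1). Each is the 250 bases before the gene's start from RefSeq's GRCr8 rat assembly, 5′ to 3′ on the gene's strand, which is the plus strand for all 4. The windows are chr10:94398535-94398784 for Axin2, chr2:222340463-222340712 for Lef1, chr16:3703415-3703664 for Wnt5a and chr7:58433329-58433578 for Wif1. Capitals mark the Tcf and Lef core CTTTGAT and the hypoxia response core ACGTG, on either strand.
Axin2: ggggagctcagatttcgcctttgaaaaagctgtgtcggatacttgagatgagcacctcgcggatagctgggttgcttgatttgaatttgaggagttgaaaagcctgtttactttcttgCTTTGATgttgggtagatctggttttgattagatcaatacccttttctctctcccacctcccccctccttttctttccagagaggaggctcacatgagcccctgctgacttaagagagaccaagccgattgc
Lef1: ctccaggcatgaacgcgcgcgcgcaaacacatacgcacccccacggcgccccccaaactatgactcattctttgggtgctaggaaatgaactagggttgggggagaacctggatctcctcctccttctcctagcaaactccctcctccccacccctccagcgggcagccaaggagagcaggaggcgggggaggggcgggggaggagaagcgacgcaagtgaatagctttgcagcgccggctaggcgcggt
Wnt5a: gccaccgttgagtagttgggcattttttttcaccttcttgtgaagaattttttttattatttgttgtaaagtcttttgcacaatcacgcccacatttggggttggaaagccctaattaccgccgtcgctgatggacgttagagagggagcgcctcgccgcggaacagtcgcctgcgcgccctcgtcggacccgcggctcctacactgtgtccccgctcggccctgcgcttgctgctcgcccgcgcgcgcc
Wif1: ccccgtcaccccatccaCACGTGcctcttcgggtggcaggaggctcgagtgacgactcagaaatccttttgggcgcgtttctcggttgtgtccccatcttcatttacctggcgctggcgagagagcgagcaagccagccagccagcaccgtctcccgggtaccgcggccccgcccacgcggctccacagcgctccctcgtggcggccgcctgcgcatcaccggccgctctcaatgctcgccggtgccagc

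Of the 33 members with a RefSeq promoter window, 1 (3.0%) held CTTTGAT or its reverse complement, against 3.1% of all 33469 windows. That member was Axin2, with the core 132 to 126 bases before the start. ACGTG was found in 5 members (15.2%), against 16.6% of all windows. These were Wif1, Rspo1, Wnt2b, Wnt9a and Wnt9b, and in Wif1, Wnt2b and Wnt9a the matches on both strands overlap as the palindrome marked in capitals in Wif1. Both shares were near those of all promoters. A match is only a run of letters, and the windows of Lef1 and Wnt5a held neither core.

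The members split in both directions. Higher in the arrays labelled differentiated were Wnt5a and Wnt4, Fzd1 and Fzd2, Ror1, Ror2 and Ryk, the antagonists Sfrp2, Sfrp4, Wif1 and Dkk1, and the transcription factor Tcf7. Lower were Wnt10a, Fzd5, Lrp5, the antagonists Dkk2, Dkk3 and Dkk4, and the feedback genes Axin2 and Lef1. In numbers, 12 of 48 rose and 8 fell at a limma adjusted p under 0.05 over all 14506 genes. Among all genes 14.7% rose and 14.9% fell. The called share was 41.7% of members, against 29.5% of all genes. Above the 40th percentile of probe set means, 20 of 42 members were called (47.6%), against 4059 of 10160 genes. The median log2 difference was 0.09 over the members and 0.06 over all genes. The 3 arrays of a group lay wholly above or below the 3 of the other in 21 members (43.8%), close to the 42.3% of all genes. A log2 difference of at least 1 was reached by 7 members that rose and 6 that fell. Over all 14506 genes, 464 called genes rose and 696 fell by that much.

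**Figure D1:**
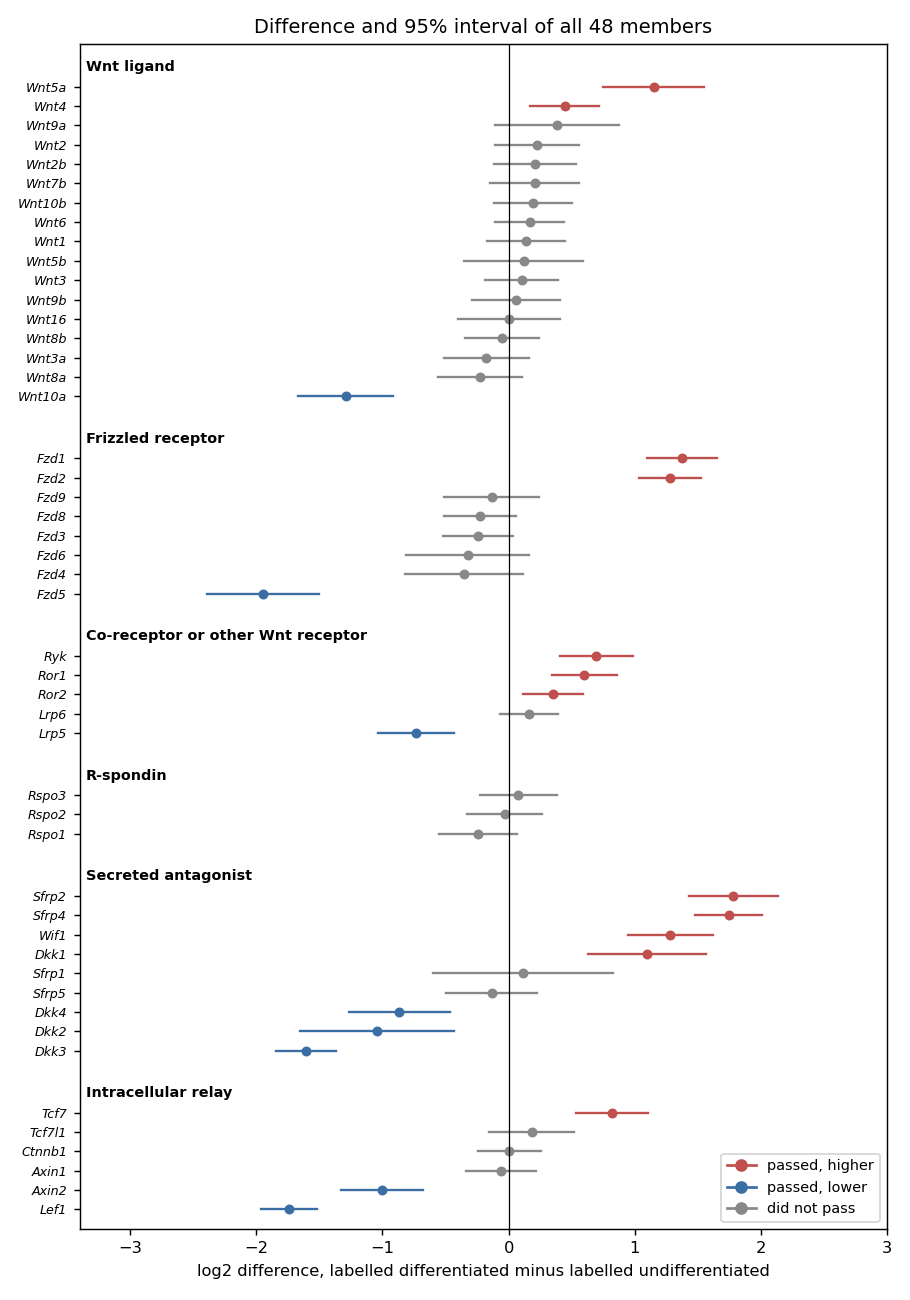
Log2 difference, arrays labelled differentiated minus arrays labelled undifferentiated, for all 48 members by role (horizontal axis). Points are limma estimates from 3 arrays a group and lines their 95% intervals. Fzd5 at -1.95 and Sfrp2 at 1.78 mark the ends, and most Wnt ligands lie near 0.

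Among the ligands 2 of 17 rose and 1 fell (17.6%, against 29.5% of all genes). Wnt5a, a ligand best known for signalling without beta-catenin, read 8.77, 8.06 and 8.63 in the arrays labelled differentiated, against 7.49, 7.04 and 7.48 in those labelled undifferentiated. The groups did not overlap, and the rise was 1.15 ± 0.18 (SE) on the log2 scale, or 2.22-fold (limma adjusted p = 0.000575). Wnt4, known from kidney and gonad development, read 5.89, 5.82 and 6.02 in the arrays labelled differentiated, against 5.31, 5.54 and 5.57 in those labelled undifferentiated. Its rise of 0.44 ± 0.12 (SE) was smaller (limma adjusted p = 0.0197), and its call was lost without differentiated replicate 3 (adjusted p = 0.0744) and without undifferentiated replicate 1 (0.0885). In all, Wnt4 passed in 13 of 16 alternatives.

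Wnt10a, a ligand of the beta-catenin branch known from teeth, skin and hair, went the other way. It read 5.22, 5.52 and 4.88 in the arrays labelled differentiated, against 6.69, 6.31 and 6.49 in those labelled undifferentiated. The groups did not overlap, and the log2 difference was -1.29 ± 0.17 (SE), 2.45-fold lower (limma adjusted p = 0.000159). Its neighbour on chromosome 9, Wnt6, differed by 0.17 (95% interval -0.107 to 0.44) and did not pass.

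The other 13 ligands that did not pass, besides Wnt6, ran from -0.23 for Wnt8a to 0.38 for Wnt9a. They include the classic beta-catenin ligands Wnt1 (0.14), Wnt3 (0.10) and Wnt3a (-0.18), and Wnt2 (0.22), Wnt2b (0.21), Wnt5b (0.12), Wnt7b (0.21), Wnt8b (-0.05), Wnt9b (0.06), Wnt10b (0.19) and Wnt16 (0.00362). The interval that reached farthest from 0 was that of Wnt9a, up to 0.875. Wnt9a was set apart by a single array, with 6.20, 7.30 and 6.53 in the arrays labelled differentiated, against 6.27, 6.39 and 6.24 in those labelled undifferentiated. It passed without differentiated replicate 1 (0.62, limma adjusted p = 0.0463), and its difference was 0.07 without differentiated replicate 2. Wnt2, Wnt2b, Wnt8a and Wnt8b were among the dimmest 40% of probe sets, where a missing difference says little, since their distance from background is not known.

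Of 8 Frizzled receptors 2 rose and 1 fell (37.5%, against 29.5% of all genes), each by more than 1 on the log2 scale. Fzd1 read 8.72, 8.89 and 8.72 in the arrays labelled differentiated, against 7.55, 7.54 and 7.13 in those labelled undifferentiated. Fzd2, a close relative of Fzd1, read 8.76, 9.01 and 8.87 in the arrays labelled differentiated, against 7.64, 7.42 and 7.75 in those labelled undifferentiated. In both the groups were well apart, with little spread within them. The rises were 1.37 ± 0.13 (SE) for Fzd1 and 1.28 ± 0.11 (SE) for Fzd2 (limma adjusted p = 1.06e-05 and 7.85e-06).

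Fzd5, a receptor known from eye and gut, was lower. It read 7.28, 6.82 and 7.52 in the arrays labelled differentiated, against 8.80, 9.13 and 9.55 in those labelled undifferentiated. The groups did not overlap, and the log2 difference of -1.95 ± 0.20 (SE), a 3.86-fold fall, had the largest size of the 48 members (limma adjusted p = 2.8e-05). The 5 Frizzled genes that did not pass all had values below 0, at -0.13 for Fzd9, -0.23 for Fzd8, -0.24 for Fzd3, -0.33 for Fzd6 and -0.35 for Fzd4, and their intervals all included 0.

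Receptors that work beside or without Frizzled moved by less. Ryk, a Wnt receptor with an inactive kinase domain, read 8.74, 8.88 and 8.81 in the arrays labelled differentiated, against 8.13, 7.84 and 8.38 in those labelled undifferentiated, a rise of 0.70 ± 0.13 (SE, limma adjusted p = 0.00183). Ror1, a receptor for Wnt5a, read 7.09, 6.80 and 7.12 in the arrays labelled differentiated, against 6.49, 6.36 and 6.36 in those labelled undifferentiated, a rise of 0.60 ± 0.12 (SE, limma adjusted p = 0.00244). In both genes the groups did not overlap. Ror2, also a receptor for Wnt5a, read 7.52, 7.74 and 7.46 in the arrays labelled differentiated, against 7.22, 7.14 and 7.30 in those labelled undifferentiated. Its rise of 0.35 ± 0.11 (SE, limma adjusted p = 0.0292) was close to the threshold and was lost when arrays were centred on their medians (adjusted p = 0.0555). It was also lost without differentiated replicate 2 (0.103), undifferentiated replicate 1 (0.0774) and undifferentiated replicate 2 (0.0915). In all, Ror2 passed in 10 of 16 alternatives.

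The beta-catenin co-receptors differed from these and from each other in what passed. Lrp5 read 7.60, 7.08 and 7.58 in the arrays labelled differentiated, against 8.08, 8.21 and 8.15 in those labelled undifferentiated. The log2 difference was -0.73 ± 0.14 (SE, limma adjusted p = 0.00185), without overlap. Lrp6 read 8.49, 8.28 and 8.39 in the arrays labelled differentiated, against 8.33, 8.26 and 8.07 in those labelled undifferentiated. Its difference of 0.16 did not pass (limma adjusted p = 0.291, 95% interval -0.0668 to 0.395). None of the 3 R-spondins passed by limma, at an adjusted or an unadjusted p under 0.05: Rspo1 was at -0.24, Rspo2, among the dimmest 40%, at -0.03 and Rspo3 at 0.08.

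**Figure D2:**
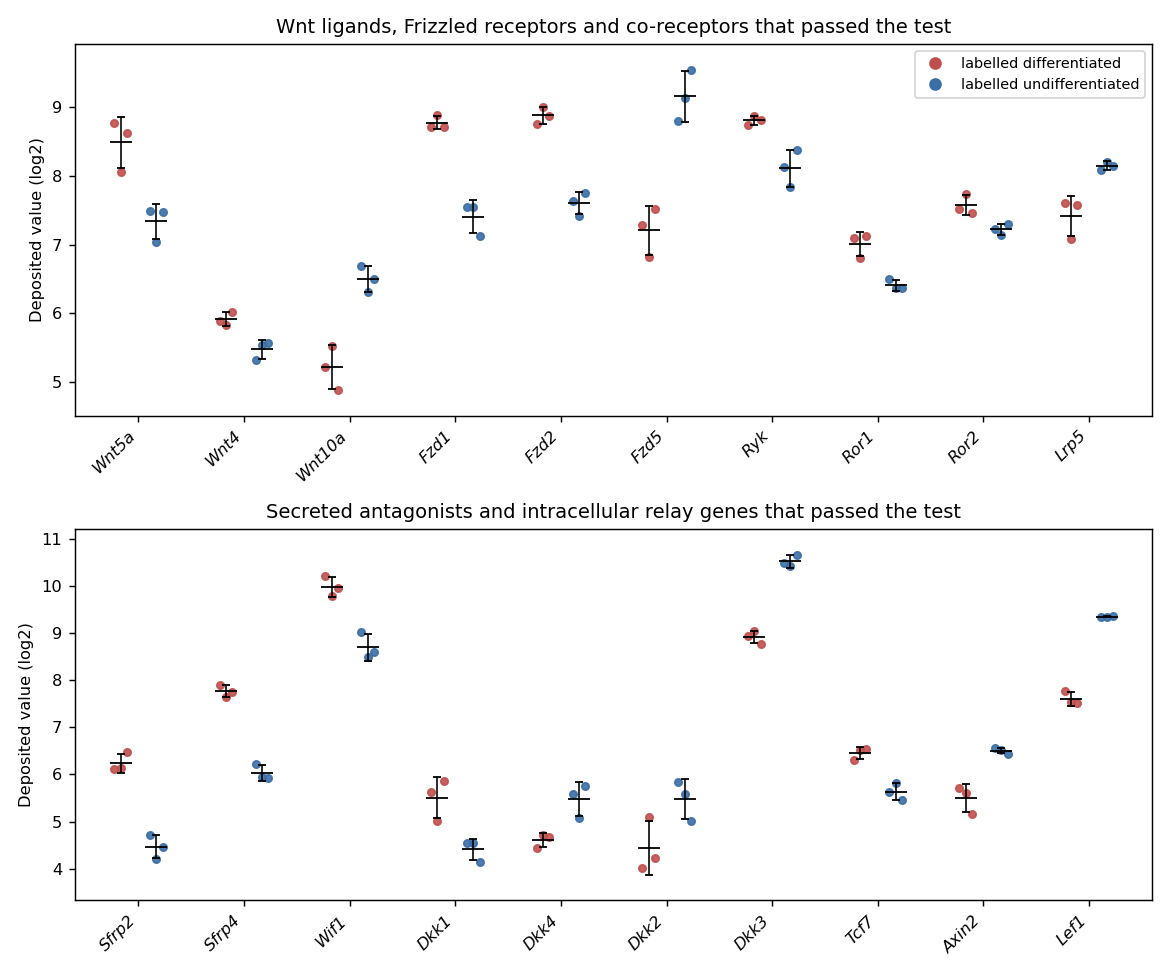
Deposited log2 values (vertical axis) of the 20 members that passed, with a point for each array, red for arrays labelled differentiated and blue for arrays labelled undifferentiated, and the mean ± SD in black (n = 3 each). Dkk2 is the 1 gene of the 20 whose groups overlap.

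Of the 9 secreted antagonists 7 passed (77.8%, against 29.5% of all genes), 4 higher and 3 lower. Sfrp2, which binds Wnts through a Frizzled-like domain, read 6.11, 6.14 and 6.48 in the arrays labelled differentiated, against 4.71, 4.21 and 4.47 in those labelled undifferentiated. Sfrp4, of the same family, read 7.91, 7.65 and 7.75 in the arrays labelled differentiated, against 6.22, 5.94 and 5.92 in those labelled undifferentiated. The groups were far apart in both. They rose by 1.78 ± 0.16 and 1.74 ± 0.12 (SE), or 3.43-fold and 3.35-fold (limma adjusted p = 9.67e-06 and 1.16e-06).

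Sfrp1 and Sfrp5 did not pass. Sfrp1 read 8.38, 7.46 and 7.91 in the arrays labelled differentiated, against 8.31, 6.94 and 8.17 in those labelled undifferentiated. Its groups overlapped fully, and the spread left a wide interval of -0.599 to 0.824 around a difference of 0.11. Sfrp5 differed by -0.14 (95% interval -0.497 to 0.226).

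Wif1, which also binds Wnts outside the cell, read 10.22, 9.78 and 9.95 in the arrays labelled differentiated, against 9.02, 8.49 and 8.59 in those labelled undifferentiated. It rose by 1.28 ± 0.15 (SE, limma adjusted p = 7.92e-05), without overlap. Dkk1, the classic blocker of Lrp5 and Lrp6, read 5.62, 5.02 and 5.87 in the arrays labelled differentiated, against 4.54, 4.54 and 4.14 in those labelled undifferentiated. It rose by 1.10 ± 0.21 (SE, limma adjusted p = 0.00212).

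The other Dkk genes were lower. Dkk3, a secreted relative of Dkk1 that is not known to bind Lrp6 in the same way, read 8.93, 9.04 and 8.78 in the arrays labelled differentiated, against 10.48, 10.42 and 10.67 in those labelled undifferentiated. Both groups were tight and far apart, and the log2 difference was -1.61 ± 0.11 (SE), 3.05-fold lower (limma adjusted p = 9.81e-07). Dkk4, itself known as a beta-catenin target, read 4.43, 4.72 and 4.67 in the arrays labelled differentiated, against 5.59, 5.08 and 5.76 in those labelled undifferentiated, and fell by 0.87 ± 0.18 (SE, limma adjusted p = 0.00361).

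Dkk2, which can block or weakly stimulate the pathway depending on context, read 4.01, 5.09 and 4.22 in the arrays labelled differentiated, against 5.84, 5.59 and 5.02 in those labelled undifferentiated. The groups overlapped by 1 array on each side. The log2 difference of -1.04 ± 0.28 (SE, limma adjusted p = 0.0146) lost its call without differentiated replicate 1 (adjusted p = 0.0631) or 3 (0.0577) and without undifferentiated replicate 1 (0.0602) or 2 (0.0579). In all, Dkk2 passed in 11 of 16 alternatives.

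Inside the cell, the values of Ctnnb1, which encodes beta-catenin itself, were 10.20, 9.97 and 9.81 in the arrays labelled differentiated, against 9.97, 9.98 and 10.01 in those labelled undifferentiated. Its difference was 0.00578 (95% interval -0.241 to 0.253, limma adjusted p = 0.978). These are transcript values, and beta-catenin is controlled mainly by the breakdown of its protein. Axin1, the scaffold of the destruction complex, differed by -0.06 and also did not pass.

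Axin2, the Axin gene that beta-catenin switches on as a feedback brake, was lower. It read 5.72, 5.61 and 5.17 in the arrays labelled differentiated, against 6.56, 6.51 and 6.44 in those labelled undifferentiated. Group means ± SD (n = 3 each) were 5.50 ± 0.29 for the arrays labelled differentiated, against 6.51 ± 0.06 for the arrays labelled undifferentiated, and the level was 2.01-fold lower on the linear scale (limma adjusted p = 0.000345). Lef1, a partner of beta-catenin on DNA, read 7.78, 7.54 and 7.51 in the arrays labelled differentiated, against 9.35, 9.34 and 9.36 in those labelled undifferentiated. The arrays labelled undifferentiated were nearly identical (SD 0.0134), and the log2 difference was -1.74 ± 0.10 (SE), 3.35-fold lower (limma adjusted p = 3.11e-07).

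Tcf7, another partner of beta-catenin, rose. It read 6.31, 6.52 and 6.53 in the arrays labelled differentiated, against 5.63, 5.81 and 5.46 in those labelled undifferentiated, a rise of 0.82 ± 0.13 (SE, limma adjusted p = 0.000551). The fall of Lef1 and the rise of Tcf7 thus put these related factors on opposite sides. Tcf7l1, known mostly as a repressor, differed by 0.18 by its probe set of highest mean and did not pass (limma adjusted p = 0.426). Its other probe sets differed by 0.56 and 0.60, and by the mean of all 3 the gene passed at 0.45 (limma adjusted p = 0.022). In all, Tcf7l1 passed in only 1 of 16 alternatives.

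**Figure D3:**
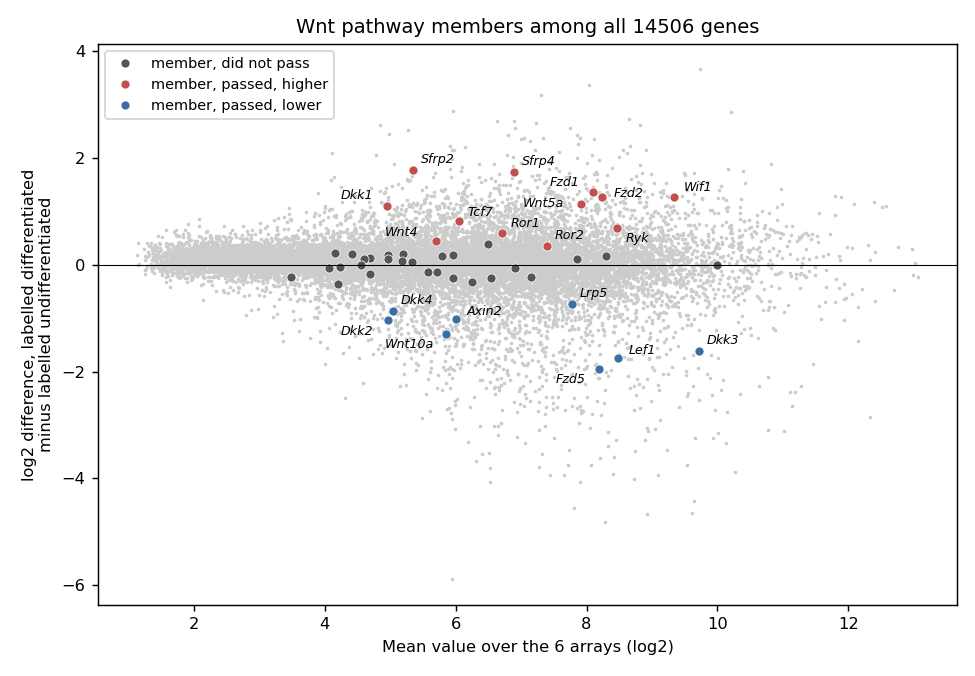
Mean value over the 6 arrays (horizontal axis, log2) against the log2 difference, arrays labelled differentiated minus arrays labelled undifferentiated (vertical axis), for all 14506 genes in grey and the 48 members in colour. The 20 members that passed span differences of -1.95 to 1.78, and members near the left edge of the cluster lie close to 0.

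Other genes of the pathway were taken from 7 lists, with the members left out. The list of beta-catenin targets had shared Axin2, Lef1, Tcf7 and Dkk1 with the members. Of 92 measured genes, 26 rose and 21 fell (51.1%, against 29.5% of all genes), with a median of 0.10. Only 2 of the 92 were dim, and with dim genes left out 4059 of 10160 genes passed, a closer baseline. The lists were also picked with earlier results known. Neither this share nor those of the single lists below can therefore tell whether a list stands out. A gene may sit on more than 1 list. For release of the ligands, Porcn, which attaches the lipid that Wnts need to be active, read 7.18, 7.42 and 7.46 in the arrays labelled differentiated, against 6.18, 5.92 and 5.65 in those labelled undifferentiated. It rose by 1.44 (limma adjusted p = 2.32e-05), while Wls, which carries Wnts to the surface, differed by 0.16 and did not pass.

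Lgr5, an R-spondin receptor, stem cell marker and known beta-catenin target, read 5.36, 5.48 and 5.34 in the arrays labelled differentiated, against 7.91, 7.78 and 7.77 in those labelled undifferentiated. The log2 difference was -2.43 ± 0.10 (SE), 5.37-fold lower (limma adjusted p = 5.41e-08), more than any of the members. The other 2 measured genes of that list, Lgr4 and Rnf43, differed by 0.20 and -0.14 and did not pass.

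Among 10 measured further inhibitors 2 rose and 1 fell (30.0%, against 29.5% of all genes). Notum, which strips the lipid from Wnts and is itself a target gene, read 4.77, 4.53 and 4.99 in the arrays labelled differentiated, against 5.79, 6.29 and 5.94 in those labelled undifferentiated, a log2 difference of -1.25 (limma adjusted p = 0.000172). Kremen1, which acts with Dkk1 to remove Lrp6 from the surface, rose by 0.93, and Nkd2, a cytoplasmic inhibitor that binds Dishevelled, rose by 0.62 (limma adjusted p = 0.000567 and 0.00527). Axin2, Lef1, Lgr5, Notum and Dkk4, all known feedback or target genes, were thus lower together. The targets Nkd2, Dkk1 and Tcf7 were higher, and Nkd1 and Rnf43 differed by 0.10 and -0.14 without passing. These genes were set side by side after their values were seen.

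In the cytoplasmic relay and destruction complex 2 of 16 genes rose and 5 fell (43.8%, against 29.5% of all genes). The protease Senp2, which removes SUMO from its targets, fell by 1.12, Btrc, which marks beta-catenin for breakdown, by 0.63, Dvl1, a Dishevelled relay protein, by 0.63 and Apc2, a relative of Apc, by 0.53. Another Dishevelled gene, Dvl3, rose by 0.53, and the casein kinase Csnk1e rose by 0.45. Dvl3 lost its call without differentiated replicate 3 (limma adjusted p = 0.06) and without undifferentiated replicate 3 (0.0562), and Csnk1e without differentiated replicate 1 (0.0562) and without undifferentiated replicate 2 (0.0592). Each of them passed in 13 of 16 alternatives. Apc, Gsk3a and Gsk3b, core parts of the complex, differed by 0.02, 0.11 and -0.03 and did not pass.

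Of 11 nuclear co-factors and repressors 2 rose and 3 fell (45.5%, against 29.5% of all genes). The corepressor Ctbp2 rose by 0.74 and Bcl9l, which links beta-catenin to Pygo proteins, by 0.45. Tle5, a short Groucho-family protein, fell by 0.73, the Groucho corepressor Tle4 by 0.56 and Ctbp1 by 0.41. The largest limma adjusted p of these 5 was 0.00854.

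On the polarity and calcium side 8 of 25 genes rose, 4 fell and 13 did not pass. None of the 25 was among the dimmest 40% of probe sets. For comparison, 29.5% of all genes passed, and 4059 of 10160 with the dimmest left out. Prickle1, a core planar polarity protein, read 7.96, 9.11 and 8.48 in the arrays labelled differentiated, against 6.16, 6.27 and 5.99 in those labelled undifferentiated. Its arrays labelled differentiated were spread over more than 1 log2 unit, yet all were well above the others, and the rise was 2.37 (limma adjusted p = 1.51e-05). The Wnt co-receptor Ptk7 rose by 1.38 and Nfatc4, a calcium-responsive transcription factor, by 1.22. Celsr3, a polarity cadherin of neurons, fell by 1.53, the phospholipase Plcb4 by 1.48, protein kinase C alpha (Prkca) by 0.83 and the glypican Gpc4 by 0.81. Vangl1 and Vangl2, also core polarity genes, differed by 0.34 and 0.11 and did not pass.

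Common beta-catenin target genes were split as well. Of 30 measured outside the members 12 rose and 9 fell (70.0%, against 29.5% of all genes), with a median of 0.16. This list too was picked with earlier results known, so its share does not test whether the list stands out. The gelatinase Mmp2 rose by 1.89, the matricellular protein gene Ccn4 by 1.47 and the mesenchymal transcription factor Twist1 by 1.41. Ccn5, a relative of Ccn4, also rose, to a mean of 7.47 in the arrays labelled differentiated, against 5.97 in those labelled undifferentiated (limma adjusted p = 5e-05). Besides Lgr5 and Notum, the angiogenic factor Vegfa fell by 2.27, the transcription factor Ascl2 by 1.21 and Id2, an inhibitor of helix-loop-helix factors, by 1.05. Vegfa was thus lower in the arrays labelled as kept at 3% oxygen. Myc and Ccnd1, growth genes named after their values were seen, rose by 1.02 and 1.53. Many of these targets also answer to other pathways. The fibroblast and mesenchyme markers and the mitosis markers given above were higher in the same arrays as Mmp2, Twist1, Ccn4, Ccn5, Myc and Ccnd1, and the glomus cell markers were lower in the same arrays as Vegfa, and their part in these differences was not tested.

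**Figure D4:**
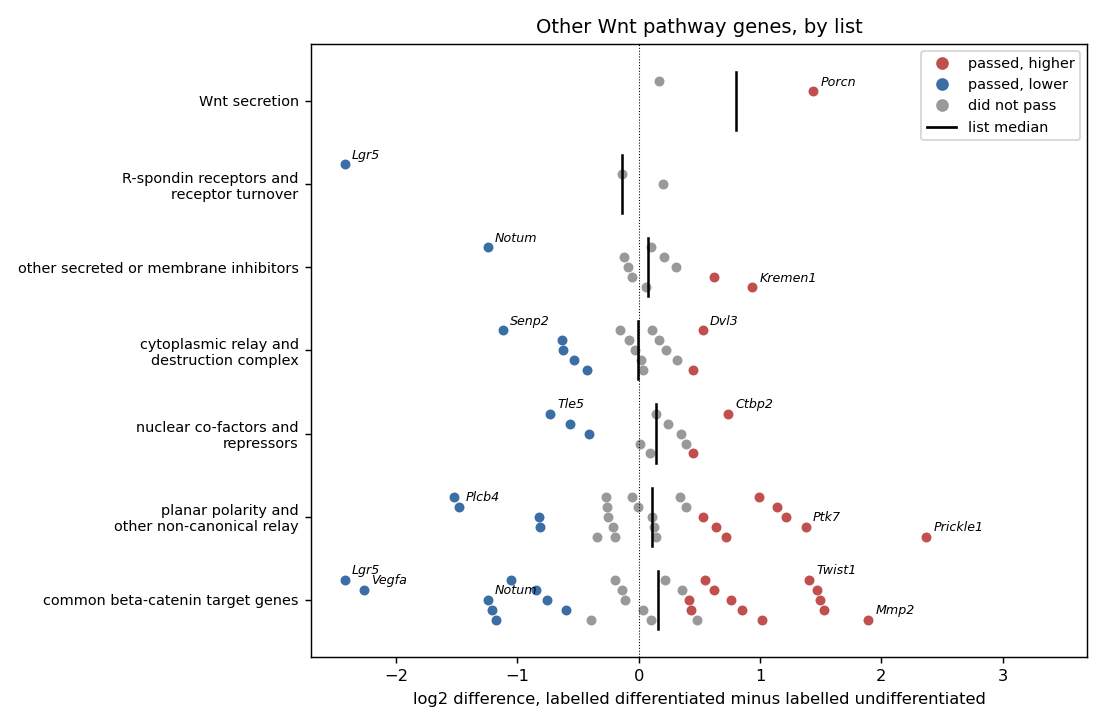
Log2 difference, arrays labelled differentiated minus arrays labelled undifferentiated (horizontal axis), of 92 further Wnt pathway genes in 7 lists, with genes of 2 lists drawn in both. Each point is a gene, coloured by whether it passed, and black bars are list medians. Lgr5 at -2.43 and Prickle1 at 2.37 are the extremes.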

How the data were processed

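RNA of 6 neurosphere samples was measured on Affymetrix arrays from biotin-labelled cRNA made with 100 ng of total RNA, per the labels. The authors deposited values for 29214 probe sets on each array. The scale was read as log2 from the deposited range, while the sources used here name no background correction, normalization or software. The number of arrays limits the precision. Of the probe sets, 15310 had exactly 1 platform symbol, 323 had several, and 13581 stay unnamed. Each gene kept its probe set of highest mean. All 48 members matched the GRCr8 gene table by gene ID with 0 symbols changed. Limma 3.58.1 in R 4.3.3 was fitted to all 14506 genes (lmFit, eBayes with trend, differentiated minus undifferentiated, two-sided, no block) with Benjamini-Hochberg adjustment over all genes and a threshold of 0.05. Intervals are 95% intervals of that fit, and the median residual SD was 0.16. The fit was also run on simulated data with independent noise, which cannot vouch for the calls in these data. Named genes are all members, and from the other pathway lists genes among the 4 with the smallest p in each direction, not always all 4. Some genes of these lists that did not pass, and some marker genes, are named too. Myc and Ccnd1 were named after their values were seen. Members and lists were chosen with earlier results of these data known, and no list was tested as a set. Same-numbered arrays correlated at 0.115, 0.124 and -0.004 in their deviations from the group means, and differently numbered arrays at -0.15 to 0.062. These values do not settle whether the numbers are pairs. The labels state no pairs, so the main fit had no block. Alternatives were the replicate block, quantile normalization, median centring, a filter on dim genes, other probe set choices, other variance models, array weights and leaving out each array. Figures used matplotlib 3.10.9 in Python 3.11.15.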

Additional observations from a re-analysis of the deposited data

How the results depend on the processing

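Across 16 alternatives 12 of the 20 called members passed in every one, and 17 did in every one but the unmoderated equal-variance test; Dkk2, Ror2 and Wnt4 did not. None of the 20 changed sign in any of these alternatives. The unmoderated test called 2740 genes in all and 7 members higher and 5 lower, against 4286, 12 and 8 with moderation. When each array was left out, the counts were 3545 to 4030 for all genes, 10 to 13 for members higher and 7 to 8 for members lower, and for the other pathway lists 23 to 28 higher and 21 to 21 lower. For the target list alone they were 10 to 13 higher and 9 to 9 lower. With the replicate number as a block, 12 members were higher and 8 lower and 4430 genes were called, so the block moved no member count. Outside the members it moved some calls. The progenitor marker Nes, for example, had a limma adjusted p of 0.00031 with the block, against 0.0542 without it. Whether the numbers pair arrays is not stated. Of the 28 members not called, 26 were called in no alternative, the exceptions being Tcf7l1 and Wnt9a. The distance of dim probe sets from background limits 6 members, Fzd4, Rspo2, Wnt2, Wnt2b, Wnt8a and Wnt8b, of which 0 passed, 0 had an unadjusted p under 0.05 and 0 passed the unmoderated test.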

Other observations

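Members that lie next to each other on a chromosome in the GRCr8 gene table form 4 pairs. Wnt3a and Wnt9a differed by -0.18 and 0.38, Wnt9b and Wnt3 by 0.06 and 0.10, and Wnt10b and Wnt1 by 0.19 and 0.14, with no call in these 3 pairs. Wnt10a and Wnt6 differed by -1.29 and 0.17, and Wnt10a alone of these 8 genes passed.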
